A study of Mus musculus with 4 samples.

Results

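Dclk1+ and Dclk1- cells of the normal small intestinal epithelium of the mouse were compared on 2 of the 4 arrays of the series, across all named genes of the array. Dclk1 encodes doublecortin-like kinase 1, a microtubule-binding kinase used to mark tuft cells. The Dclk1- normal sample came from 1 mouse and the Dclk1+ normal sample from 2 mice, whose cells make up a single sample. All were male, 26 weeks old and of the genotype Dclk1CreERT2/+, so both samples carried the CreERT2 allele of Dclk1. The other 2 arrays held cells from tumors. Dclk1- tumor cells came from 1 mouse aged 17 weeks and Dclk1+ tumor cells from 7 mice aged more than 16 weeks. All of these mice were both Dclk1CreERT2/+ and ApcMin/+. The tumor arrays entered the normalization and the choice of probe, and are otherwise used only for side-by-side values. Per the labels, tissue was digested with collagenase and DNase and filtered, and Dclk1+ tumor cells were sorted by GFP. The sources used here do not give the gate of the normal cells or what drives GFP.

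Tuft cells are rare chemosensory cells of the gut lining with a thick tuft of microvilli. They detect luminal metabolites through a signalling chain shared with taste cells, release IL-25 and cysteinyl leukotrienes, and contain acetylcholine-producing machinery. In the small intestine they take part in the circuit with innate lymphoid cells that answers worms and protists. The rest of the epithelium is mostly absorptive enterocytes, with mucus-secreting goblet cells, hormone-secreting enteroendocrine cells, antimicrobial Paneth cells and the dividing cells of the crypt.

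Each sample was measured on 1 array, so nothing was tested, no error between mice could be had, and every difference below compares 2 arrays. Of the 23473 probes, 70.9% lay above background on the Dclk1+ normal array and 68.6% on the Dclk1- normal array. The background limit of an array was 2 SD over the mean of its blank spots. Of 16390 named genes, 12845 were above background on at least 1 normal array, 10936 of them on both. Levels are the authors' normalised intensities, a linear brightness scale on which the median of the listed probes is close to 25 on each array. Differences are Dclk1+ minus Dclk1- on the log2 scale, after background correction with an offset of 50 and quantile normalization. Paired levels give Dclk1+ cells first, and a value in parentheses after levels is the log2 difference. The offset shrinks the differences of dim genes, so their level ratios are larger than the log2 differences convey. The 2 scales are also centred differently. In genes above background on both arrays the median log2 ratio of levels was 0.23, and the median log2 difference was near 0. For bright genes the 2 measures can therefore differ in size, and small differences in sign. In some bright genes the gap was larger. Cdh17 and B2m were 1.34-fold and 1.52-fold lower in Dclk1+ cells by levels, yet count as 2-fold lower by log2 difference. Mcl1 was 2.32-fold higher by levels and, at 0.79, does not count as 2-fold higher. Calls of 2-fold and 4-fold rest on the log2 differences. A gene above background on 1 array only is given as at least N-fold, set against the lowest signal above background on the other array. In bulk RNA, fewer cells of a type and less RNA per cell cannot be told apart.

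On these 2 arrays, 206 genes were at least 4-fold higher in Dclk1+ cells (1.6% of those tested) and 277 at least 4-fold lower (2.16%). At 2-fold the counts were 726 higher (5.65%) and 760 lower (5.92%), and the median log2 difference over all 12845 genes was 0.015. The 2-fold counts of the gene lists below are to be read beside these shares. The 4-fold calls depended on brightness, in part by construction. With the offset of 50, a gene under a level of 100 on both arrays cannot reach 4-fold. None of the 3006 genes with a level under 10 on their brighter array, and none of the 5633 between 10 and 100, reached 4-fold, against 6.65% of 2964 genes between 100 and 1000 and 23.03% of 1242 genes from 1000 up. In the plot of difference against brightness the cloud of genes opens to the right, which the offset brings about at least in part. Tuft cell genes lie along its upper edge and goblet, hormone and fat absorption genes along its lower edge.

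**Figure D1:**
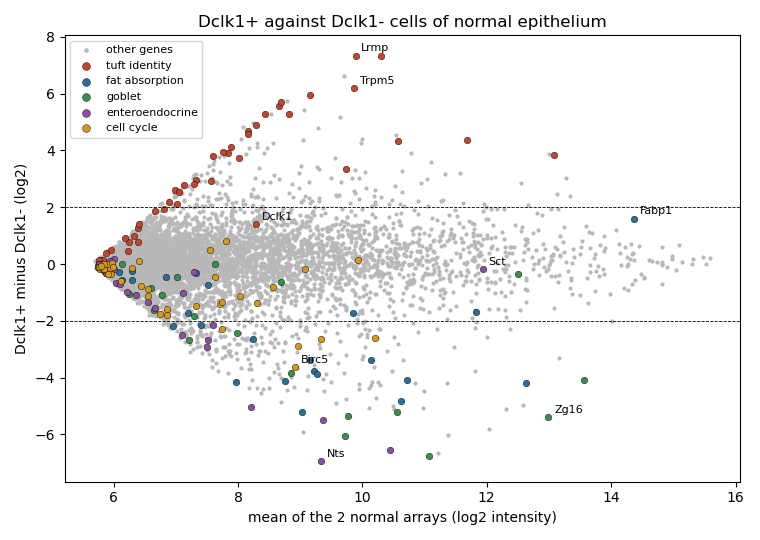
Log2 difference (Dclk1+ minus Dclk1- normal, vertical axis) against the mean log2 intensity of the 2 normal arrays (horizontal axis), 1 point per gene above background on at least 1 of them. Dashed lines mark 4-fold, colours mark 5 gene lists and grey points are other genes. Tuft identity genes reach 7.34 (Lrmp), and Nts lies lowest at -6.95.

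Dclk1 itself had a level of 736 in Dclk1+ cells and 179.8 in Dclk1- cells, a log2 difference of 1.41. The labelled direction therefore held for the marker, although Dclk1 was also above background in the Dclk1- cells. The ratio of its levels was 4.09, and its log2 difference was short of 4-fold. That difference was 1.59 with an offset of 16, 1.71 with the blank mean subtracted and 1.28 with the local background subtracted, also short of 4-fold. Genes of epithelium in general were present in both samples. Vil1, the villin that bundles microvillar actin, had a level of 19096 in Dclk1+ cells and 12106 in Dclk1- cells (log2 difference 0.05), and Epcam, an epithelial adhesion molecule, had 2624 in Dclk1+ cells and 3416 in Dclk1- cells (-0.86). Of 17 measured epithelial genes, all above background, 1 was 2-fold or more higher in Dclk1+ cells (Cdx1, an intestinal homeobox factor, 1.24) and 3 were at least 2-fold lower (Ocln -1.43, Ezr -1.38 and Cdh17 -1.05), with a median of -0.053. Of the reference genes, Actb had a level of 34265 in Dclk1+ cells and 22919 in Dclk1- cells and a log2 difference of 0.15, Hprt -0.52 and Tbp -0.14. Gapdh's probe hardly exceeded background in either sample (5.47 against 5.78) and checks nothing.

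Tuft cell genes were higher in the Dclk1+ cells. Of 48 listed tuft identity genes 43 were on the array. All 43 were above background in Dclk1+ cells, while 12 of them were not above it in Dclk1- cells. Of the 43, 34 were 2-fold or more higher in Dclk1+ cells, 28 of these by 4-fold or more, and none was 2-fold lower. The median was 2.94, beside 0.015 over all genes. The highest difference in the list was 7.34. This list was drawn up with earlier results of these arrays known, so its direction is a description and no independent support.

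The promoters of 2 strongly different genes of the Dclk1+ side hold the octamer ATGCAAAT, the motif bound by POU factors such as the tuft cell regulator Pou2f3. They are shown with a promoter of the Dclk1- side, where the HNF4-type motif CAAAGTCCA was searched because HNF4 factors drive enterocyte genes. Windows are from RefSeq, build GRCm38.p6, written 5′ to 3′ on the gene's strand, with the motif in capitals:
Zfp428, chr7:24506912-24507019, plus strand: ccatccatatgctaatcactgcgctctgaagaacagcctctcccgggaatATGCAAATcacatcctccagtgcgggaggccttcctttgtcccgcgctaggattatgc
Blnk, chr19:40994294-40994401, minus strand: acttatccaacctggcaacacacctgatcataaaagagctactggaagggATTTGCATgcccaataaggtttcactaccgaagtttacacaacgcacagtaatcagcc
Slc3a1, chr17:85028258-85028366, plus strand: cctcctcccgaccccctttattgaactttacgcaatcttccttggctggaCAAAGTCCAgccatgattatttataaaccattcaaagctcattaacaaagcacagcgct
In Zfp428 the octamer starts 125 bases before the start site and a further copy starts 71 bases before it. In Blnk it is on the opposite strand, which reads ATTTGCAT here, 130 bases before the start. The Slc3a1 match starts 39 bases before it.

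These motifs were not frequent on either side. Both strands of the 250 bases before to 50 bases after each start were searched. The octamer was found in 1.735% of 32851 RefSeq promoters and in 1.704% of 10326 matched genes above background on either normal array. It was in 3 of 167 matched genes at least 4-fold higher in Dclk1+ cells (1.796%) and in 5 of 222 at least 4-fold lower (2.252%). The 3 were Zfp428, Blnk and Gadd45g (2.52). The 5 were Sprr2b (-5.11), Duoxa2 (-4.53), Il18 (-4.03), Il33 (-2.21) and Pbld2 (-2.14). The HNF4 motif was in 0.475% of all promoters, 0.562% of the 10326 genes, 2 of the 167 (1.198%) and 5 of the 222 (2.252%). The match in these letters is a description of the window and not a measured binding site.

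Among genes above background on both arrays, the highest log2 differences were those of Lrmp and Alox5ap. Lrmp, an endoplasmic reticulum membrane protein also known from lymphocytes, had a level of 21104 in Dclk1+ cells and 29.9 in Dclk1- cells, a log2 difference of 7.34. Alox5ap, the membrane protein that presents arachidonic acid to the lipoxygenase, had 27148 in Dclk1+ cells and 62.1 in Dclk1- cells (7.34). Over the 25 genes with the highest differences the ratio of levels ran from 29.6 to 887.5, with a median of 268.4, and 13 of the 25 are in the tuft list. Inpp5j, a phosphoinositide phosphatase of that list, was 11010.0 against 371 (4.32).

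**Figure D2:**
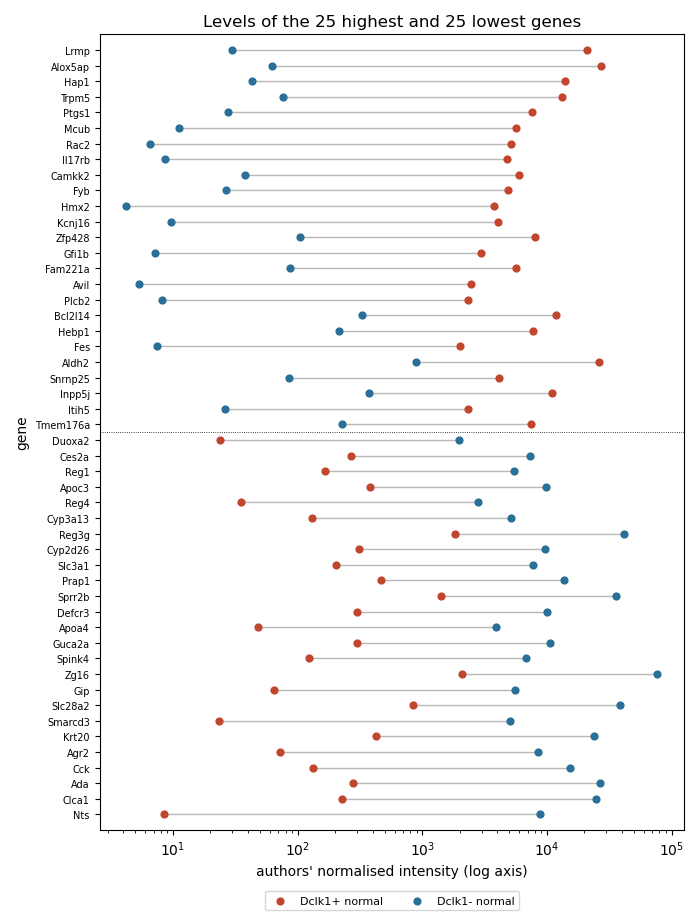
Levels (the authors' normalised intensity, log axis) of the 25 genes with the highest and the 25 with the lowest log2 difference, among genes above background on both normal arrays, with 1 point for each array and a line joining the pair. In every gene of the upper block the Dclk1+ point lies to the right, from a ratio of 29.6 upward, and in every gene of the lower block the Dclk1- point does, from 22.7 upward.

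The transduction chain that tuft cells share with taste cells was higher in Dclk1+ cells at several steps. Trpm5, the calcium-activated cation channel at its end, had a level of 13231 in Dclk1+ cells and 76.2 in Dclk1- cells (6.21 on the log2 scale). Plcb2, the phospholipase that makes inositol trisphosphate, had 2334 in Dclk1+ cells and 8.19 in Dclk1- cells (4.57). Of its G protein subunits, Gng13 (gamma) had 1386 against 3.88 (3.95) and Gnat3, gustducin alpha, 414 against 3.81 (2.53). Gnai2, an inhibitory alpha subunit found in most cells, also differed, at 27185 against 2811 (2.85). The beta subunit Gnb3 was below background in both samples, at 2.69 in Dclk1+ cells and not listed in Dclk1- cells. Rgs13, which speeds the shutdown of G protein signals, had a level of 1139.7 in Dclk1+ cells and was not listed in Dclk1- cells, a difference of at least 13.3-fold. A pair of receptors for luminal or microbial metabolites were also higher, Sucnr1 for succinate (126, not listed in Dclk1- cells, at least 2.52-fold) and Ffar3 for short-chain fatty acids (87.6 against 5.33, 1.00). These are named although they are outside the naming rule, as the receptor end of the chain, and were chosen after their values were seen. Of 15 measured members of the chain above background, 8 were at least 2-fold higher and 1 lower, Gnb1, a widely used beta subunit (1314 against 2153, -1.04). The list's median was 1.00, and the inositol trisphosphate receptor Itpr3 was at 0.59.

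Leukotriene and prostaglandin synthesis was higher at named steps and not across the pathway. Alox5, the lipoxygenase that starts leukotriene synthesis, had a level of 494 in Dclk1+ cells and was not listed in Dclk1- cells (at least 6.73-fold). Ltc4s, the synthase of leukotriene C4, had 1453 in Dclk1+ cells and 8.65 in Dclk1- cells (3.92). Ptgs1, the constitutive cyclooxygenase, had 7566 in Dclk1+ cells and 27.7 in Dclk1- cells (5.95), while Ptgs2, the inducible enzyme, was near background in both samples (8.12 against 2.81). The branch enzyme Lta4h, which makes leukotriene B4 instead, was 709.9 against 1064 (-0.79), so it did not share the direction of Ltc4s. Ptgis, the prostacyclin synthase, was at 172 against 17.7 (1.37). Of 15 measured members above background, 5 were at least 2-fold higher and none lower, with a median of 0.38.

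Signalling proteins best known from blood cells were also higher in Dclk1+ cells. Of 30 measured members above background, 16 were higher in Dclk1+ cells by 2-fold or more and none was lower by as much, and the median was 1.41. Rac2, a GTPase of leukocytes, had a level of 5108 in Dclk1+ cells and 6.53 in Dclk1- cells (5.72). Fyb, an adaptor of T cell signalling, had 4835 in Dclk1+ cells and 26.4 in Dclk1- cells (5.29), and its partner Skap2 had 55824 in Dclk1+ cells and 2866 in Dclk1- cells (3.84). Plcg2, the phospholipase of B cell receptor signalling, had 1539.8 in Dclk1+ cells and 25.6 in Dclk1- cells (3.72). Blnk, the B cell linker whose promoter is shown above, had 8194 in Dclk1+ cells and 602 in Dclk1- cells (3.28), and Csk, a kinase that restrains Src family kinases, 8594 in Dclk1+ cells and 888 in Dclk1- cells (2.87). The T cell adaptors Lat and Lcp2, the B cell kinase Btk and the kinase Syk stayed within 0.26 of 0. Fes, a cytoplasmic tyrosine kinase, belongs to none of the lists and was among the 25 highest at 2016 against 7.51 (4.40). Plek, a platelet and leukocyte protein, was at 612 in Dclk1+ cells and not listed in Dclk1- cells (at least 8.09-fold).

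Markers of blood cells were measured beside this group. For T, NK and intraepithelial lymphocytes the summed level was 539.3 in Dclk1+ and 611.5 in Dclk1- cells, and of 17 genes 6 were not above background in Dclk1+ and 3 in Dclk1- cells, Cd3e and Prf1 in neither. For B and plasma cells the sums were 248.8 and 199.9, with 5 of 12 genes, Pax5, Tnfrsf17, Cr2, Pou2af1 and Blk, below background on both. For macrophages, dendritic cells and neutrophils they were 2834.2 and 977.6. In that list 7 of 23 genes, Itgam, Adgre1, Mrc1, Ccr2, S100a9, Cd163 and Fcgr1, were below background on both arrays, and 3 of the 16 above background were at least 2-fold higher in Dclk1+ cells, Aif1 (829.5 against 160.4, 1.66), Il1b (239.6 against 21.9, 1.63) and C1qb (877 against 230.0, 1.32). Ptprc, the pan-leukocyte CD45, was 168 against 6.13 (1.55). For mast cells the sums were 215.6 and 70.5, with Mcpt2 at 126 against 11.1 (1.19) and Kit, Cma1 and Fcer1a among the 8 of 12 genes below background on both. The part of such cells in the results was not tested.

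Few transcription factors passed 2-fold, and the offset leaves dim ones little room to do so. Hmx2, a homeobox factor, had a level of 3736 in Dclk1+ cells and 4.21 in Dclk1- cells (5.28), and Gfi1b, a zinc finger repressor best known from blood, 2952 in Dclk1+ cells and 7.20 in Dclk1- cells (4.88). Zfhx3, a large homeobox factor, had 970.2 in Dclk1+ cells and 21.2 in Dclk1- cells (3.23). Pou2f3, the factor tuft cells need to form, was close to background on this array, at 8.94 in Dclk1+ cells and not listed in Dclk1- cells (at least 1.07-fold), so its probe gives almost no measure of it. Spib was 82.6 against 16.3 (0.77), with a level ratio of 5.08, and Ascl2 159 against 109.97 (0.23). Hmx2, Gfi1b and Zfhx3 were the 3 of 12 at least 2-fold higher, and none was lower. Of 27 factors of other epithelial lineages, 1 was at least 2-fold higher (Cdx1) and 2 lower, near the 5.65% and 5.92% of all genes. The 2 lower were Neurod1 of hormone cells (8.42 against 349, -2.48) and the nuclear receptor Nr1i3 (10.4 against 411, -2.64). Neurog3, also of hormone cells, was dim, at 2.57 in Dclk1+ cells and 46.1 in Dclk1- cells (at least 1.60-fold lower). Zfp428, a zinc finger protein whose promoter is shown above, lies in no list and was at 8028 against 104 (5.20).

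Structural and ion-handling genes were mixed, with a few large differences. Avil, advillin, an actin-binding relative of villin, had a level of 2440.2 in Dclk1+ cells and 5.33 in Dclk1- cells (4.67), while Vil1 differed by 0.05. Dnah6, an axonemal dynein heavy chain, was at 2908 in Dclk1+ cells and not listed in Dclk1- cells. At 30.8-fold or more it had the largest bound of the genes above background in Dclk1+ cells only. Tubb5, a beta tubulin, was 4349.8 against 665 (2.20). On the other side Pls1, the plastin that bundles actin in microvilli, was 702 against 3679 (-2.59) and Eps8, which caps actin filaments there, 21.8 against 310.2 (-2.11). Of 27 cytoskeletal genes 4 were higher and 7 lower by 2-fold or more, beside 5.65% and 5.92% of all genes.

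Among 27 genes listed as ion channels and pumps 5 were at least 2-fold higher and 2 lower, beside 5.65% and 5.92% of all genes. Kcnj16, an inwardly rectifying potassium channel, had a level of 4048 in Dclk1+ cells and 9.61 in Dclk1- cells (5.28). Kcnmb4, a beta subunit of calcium-activated potassium channels, was at 2438 and not listed in Dclk1- cells (at least 26.3-fold). Mcub, which dampens the mitochondrial calcium uniporter, had 5599 in Dclk1+ cells and 11.2 in Dclk1- cells (5.74), and Atp2a3, a calcium pump of the endoplasmic reticulum, 541 in Dclk1+ cells and 32.2 in Dclk1- cells (2.38). Trpm5 was the fifth. Kcne3, a potassium channel subunit of secreting epithelium, was lower at 8.94 against 148 (-1.52). The other lower member was Clca1 (-6.76), a protease of the mucus and no channel, given with the goblet cell genes below.

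A few genes best known from neurons were high in Dclk1+ cells. Hap1, the huntingtin-associated protein of vesicle transport, had a level of 13939 in Dclk1+ cells and 43 in Dclk1- cells (6.61), Nrgn, a calmodulin-binding protein, 4672 in Dclk1+ cells and 283 in Dclk1- cells (3.34), and Pde2a, a cyclic nucleotide phosphodiesterase, 694 in Dclk1+ cells and 16 in Dclk1- cells (2.92). They were the 3 of 19 such genes past 2-fold, beside 5.65% of all genes higher and 5.92% lower. Chat, the enzyme that makes acetylcholine, was 51.1 against 16.5 (0.45), and Slc5a7, the choline transporter, was close to background. Camkk2, a calmodulin-dependent kinase, lies in no list and was at 6024 against 38.2 (5.44).

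The cytokines and receptors of type 2 immunity were split by gene. Il25, the tuft cell signal to innate lymphoid cells, had a level of 618 in Dclk1+ cells and 6.31 in Dclk1- cells (2.96), and Tslp, another epithelial alarmin, 1644 in Dclk1+ cells and 6.09 in Dclk1- cells (4.11). Il17rb, the subunit that binds IL-25, had 4810.3 in Dclk1+ cells and 8.59 in Dclk1- cells (5.58), but Il17ra, its shared partner, was 6.78 against 9.58 (-0.07). Il33, the third alarmin, was lower in Dclk1+ cells at 8.52 against 279.6 (-2.21). Il13ra1 was 144 against 43.7 (0.83). Of 16 members, 3 were at least 2-fold higher and 1 lower, beside 5.65% and 5.92% of all genes.

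Some interferon-stimulated genes were high in Dclk1+ cells and most were near 0. Of 23, 5 were at least 2-fold higher and 1 lower (Rtp4, -1.13), with a median of 0.23. Oas2, an antiviral oligoadenylate synthetase, had a level of 2838 in Dclk1+ cells and 46.2 in Dclk1- cells (4.25), Ifi27 15693 in Dclk1+ cells and 1238 in Dclk1- cells (3.19) and Bst2, tetherin, 2145 in Dclk1+ cells and 189.8 in Dclk1- cells (2.69). Oas1a was at 2.16, Rsad2 at 1.67 and Oasl1 at -0.35. Ifitm1, a membrane protein that blocks viral entry, was 1303 against 8.75 (3.80), while its relatives Ifitm2 (0.18) and Ifitm3 (-0.46) stayed within 2-fold. Antigen presentation genes were lower or within 2-fold. H2-Aa, a chain of MHC class II, was 1594 against 15335 (-3.77) and Cd74, the invariant chain, 61.5 against 827 (-2.83), with only 3 class II genes measured. B2m, the light chain of class I, was 13117 against 19988 (-1.08), the only 1 of 8 class I genes past 2-fold. Tapbp, of the same list, went the other way at 2036 against 1062 (0.52), and the list's median was -0.11.

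**Figure D3:**
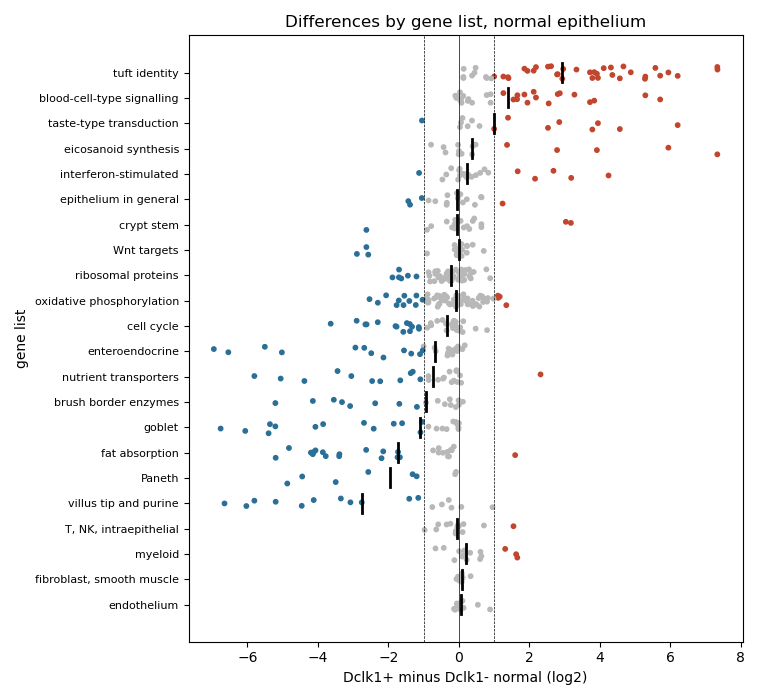
Log2 differences (horizontal axis, Dclk1+ minus Dclk1- normal) of the members of 22 gene lists (vertical axis), 1 point per gene above background on at least 1 normal array. Black bars are list medians, dashed lines mark 2-fold, red points are at least 2-fold higher and blue at least 2-fold lower. The tuft list has its median at 2.94 and no blue point, and the villus tip list has its median at -2.75 and no red point.

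Enterocyte genes were higher in the Dclk1- cells. Of 27 genes of fat absorption and apolipoproteins, 16 were lower in Dclk1+ cells by 2-fold or more and 1 was higher, with a median of -1.74. Apoa4, an apolipoprotein of chylomicrons, had a level of 48.3 in Dclk1+ cells and 3915 in Dclk1- cells (-5.20), Apoc3 379 in Dclk1+ cells and 9755 in Dclk1- cells (-4.82) and Apoa1 10.6 in Dclk1+ cells and 1304 in Dclk1- cells (-4.14). Fabp2, the intestinal fatty acid-binding protein, had 2554 in Dclk1+ cells and 29981 in Dclk1- cells (-4.20), whereas Fabp1, the liver-type protein, was the exception, higher in Dclk1+ cells at 63956 against 14387 (1.60). Creb3l3, a factor that drives apolipoprotein genes, was 74.4 against 2283 (-4.12) and Mttp, which loads fat onto apolipoprotein B, 715 against 2139 (-1.74). Apob was dim on both arrays (13.3 against 29.8, -0.28).

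Enzymes and transporters of the brush border were lower in Dclk1+ cells in part. Of 17 brush border enzymes and peptides, 8 were at least 2-fold lower and none higher (median -0.93). Mep1b, a meprin protease, had a level of 74.2 in Dclk1+ cells and 2322 in Dclk1- cells (-4.14), Dpp4 22.2 in Dclk1+ cells and 822 in Dclk1- cells (-3.31) and Lct, lactase, 30.3 in Dclk1+ cells and 422 in Dclk1- cells (-2.37). Tmprss15, enteropeptidase, was at 507 in Dclk1- cells and not listed in Dclk1+ cells (at least 8.04-fold). Anpep and Mep1a stayed near 0 (-0.23 and 0.00). Guca2a and Guca2b, the guanylin peptides that regulate salt and water secretion, were 299 against 10674 (-5.20) and 180.4 against 2591 (-3.55).

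Of 26 nutrient transporters 11 were at least 2-fold lower and 1 higher. Slc3a1, the heavy subunit of a dibasic amino acid transporter and the gene of the third promoter above, had a level of 204 in Dclk1+ cells and 7726 in Dclk1- cells (-5.05). Slc6a19, a neutral amino acid transporter, had 16.4 in Dclk1+ cells and 1659 in Dclk1- cells (-4.38) and Slc5a1, the sodium-glucose transporter, 72.3 in Dclk1+ cells and 1374 in Dclk1- cells (-3.44). The one higher in Dclk1+ cells was Slc1a5, a glutamine transporter (1422 against 157, 2.32). For ileal bile acid handling 5 of 11 were lower and 1 higher. Fabp6, which binds bile acids in the ileum, was 4956 against 34101 (-3.31), and the export subunits Slc51a and Slc51b were at -4.48 and -3.75, while the exporter Abcc3 was at 1.57. The labels do not say which stretch of the small intestine each sample came from. Of 12 distal small intestine genes 10 were lower by 2-fold or more in Dclk1+ cells, and of 15 proximal genes 6 were lower and 1 higher (Fabp1), several of them also in the lists above. The part of region in these differences was not tested.

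Genes of the villus tip and of purine handling were on the Dclk1- side. Of 17, 11 were lower by 2-fold or more and none higher, and their median was -2.75. Ada, adenosine deaminase, had a level of 279.7 in Dclk1+ cells and 26544 in Dclk1- cells (-6.65). Slc28a2, a purine nucleoside transporter, had 839 in Dclk1+ cells and 38768 in Dclk1- cells (-5.80) and Pnp, the phosphorylase of the next step, 597 in Dclk1+ cells and 11071 in Dclk1- cells (-4.46). Xdh, which makes uric acid, was 53.4 against 1124 (-3.35). Krt20, the keratin of differentiated enterocytes, was 428 against 23999 (-6.03), and Cdkn1a was above 0 at 0.96. Of 44 genes of xenobiotic, alcohol and aldehyde metabolism 19 were at least 2-fold lower and 3 higher. Cyp2d26 was 310.3 against 9606 (-4.99), Cyp3a13 129 against 5141 (-4.89) and the carboxylesterase Ces2a 269 against 7339 (-4.73). The 3 higher were Aldh2, the mitochondrial aldehyde dehydrogenase (26297 against 889, 4.36), Adh7 (2.06) and Gstt1 (1.41).

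Secretory lineages were also on the Dclk1- side. Of 23 goblet cell genes 13 were lower in Dclk1+ cells by 2-fold or more and none higher (median -1.09). Clca1, a protease of the mucus, had a level of 229 in Dclk1+ cells and 24890.0 in Dclk1- cells (-6.76), Zg16, a lectin of the mucus, 2098 in Dclk1+ cells and 77094 in Dclk1- cells (-5.40) and Tff3, a trefoil peptide, 5037 in Dclk1+ cells and 63010.0 in Dclk1- cells (-4.07). Spink4, a protease inhibitor, was 123 against 6814 (-5.36). Agr2, the disulfide isomerase that folds mucins, was 72.8 against 8436 (-6.06) and Muc2, the gel-forming mucin, 43.5 against 317 (-1.84). Of 30 genes of the secretory pathway in general 7 were lower by 2-fold or more and 1 higher (median -0.36), beside 5.92% and 5.65% of all genes. The higher one was the signal peptidase subunit Sec11c (24000.0 against 3888, 2.09).

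Of 8 Paneth cell genes above background 6 were at least 2-fold lower, among them the defensin Defa5 (11.2 against 826, -3.49), the lectin Itln1 (97.3 against 3182, -4.44) and the protease Mmp7 (48.9 against 607, -2.57). The probe named Defcr3, after a cryptdin defensin, was 300.0 against 9959 (-5.11). Defensin probes can bind RNA of several family members. The Reg lectins, secreted antimicrobial proteins, were lower for 3 of 4: Reg3g 1833 against 41589 (-4.97), Reg1 165 against 5453 (-4.74) and Reg4 35.3 against 2826 (-4.87). Reg2 was near background on both arrays.

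Hormone genes held the lowest value of all, but most genes of the enteroendocrine list were not 2-fold lower. Nts, neurotensin, had a level of 8.42 in Dclk1+ cells and 8765 in Dclk1- cells (-6.95). Cck, cholecystokinin, had 134 in Dclk1+ cells and 15348 in Dclk1- cells (-6.54) and Gip, the incretin of K cells, 64.9 in Dclk1+ cells and 5518 in Dclk1- cells (-5.50). Pyy was at 2150.1 in Dclk1- cells and not listed in Dclk1+ cells (at least 31.2-fold lower). Sct, secretin, was instead bright on both arrays, at 6275 against 5113 (-0.18), and Sst, somatostatin, was 131 against 155 (-0.29). Tph1, which makes serotonin, was 29.1 against 543 (-2.68) and the granule protein Chgb 19 against 592 (-2.93). Of 28 enteroendocrine genes 12 were at least 2-fold lower and none higher (median -0.67).

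Cell cycle genes were lower in Dclk1+ cells or within 2-fold, and none of 41 was at least 2-fold higher. There, 14 were at least 2-fold lower, beside a list median of -0.35. Birc5, survivin, had a level of 125 in Dclk1+ cells and 2160.5 in Dclk1- cells (-3.63), Stmn1, a tubulin-binding protein, 191 in Dclk1+ cells and 1720.2 in Dclk1- cells (-2.90) and Cdk1, the mitotic kinase, 62.7 in Dclk1+ cells and 553 in Dclk1- cells (-2.30). Mki67 and Top2a were dim on both arrays, Mki67 at -0.36 and Top2a at least 1.11-fold lower. Of the regulators, Cdkn1c, the p57 inhibitor of cyclin-dependent kinases, was 1437 against 8.998 (3.90) and Ccnd2, a D cyclin, 79.9 against 990.4 (-2.89). Bcl2l14, a Bcl2 family member, was 11767 against 329.6 (4.56), while Bok was 7.04 against 168 (-1.68).

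Most crypt stem cell and Wnt genes were within 2-fold. Of 22 Wnt targets and feedback genes none was at least 2-fold higher and 3 were lower (Ccnd2, Ephb3 and Mmp7, all past 4-fold), with a median of -0.0061. Of 25 stem cell genes 2 were at least 2-fold higher, 1 lower, and the median was -0.056. The 2 were Hopx, a homeodomain protein used as a marker of slowly cycling crypt cells (12527 against 1054, 3.18), and Nav1, a neuron navigator protein (814 against 20.2, 3.04). Lgr5, the receptor of active stem cells, was at 26.4 in Dclk1+ cells and not listed in Dclk1- cells (at least 1.29-fold), and Olfm4 was 219 against 209 (-0.11). Ephb3, a Wnt-driven receptor of the crypt base, was 83.8 against 831 (-2.62). Axin2, the Wnt feedback gene, was close to background on both arrays (5.90 against 2.37). Cldn15 and Cldn2, claudins that form sodium-permeable pores, were 38.9 against 2081 (-4.36) and 91.5 against 2313 (-3.99), the only 2 of 12 claudins past 2-fold.

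Stress and mitochondrial genes were mostly within 2-fold. Of 26 immediate-early and dissociation genes 4 were lower in Dclk1+ cells by 2-fold or more, Egr1 (3.60 against 505, -2.99), Jun (37.5 against 528, -2.53), Klf6 (-1.27) and Zfp36l1 (-1.01), and 1 was higher, Dnajb1 (1.27). Their part in other differences was not tested. Of 72 genes of oxidative phosphorylation 4 were higher by 2-fold or more, a share close to the 5.65% of all genes. In the same list 11 were lower, a larger share than the 5.92% of all genes. Of the 34 genes of complex I 4 were higher (Ndufa1, Ndufa2, Ndufa7 and Ndufv3, from 1.11 to 1.35) and 4 lower, and none of the 15 genes of complex V was past 2-fold in either direction. The complex II subunits Sdhd and Sdhb were at -2.53 and -2.06. Of 52 cytosolic ribosomal protein genes 6 were at least 2-fold lower and none higher, beside 5.92% and 5.65% of all genes. The summed levels, on the scale that is centred differently, were higher in Dclk1+ cells. They were 732452 against 556707 for ribosomal proteins and 931407 against 595743 for oxidative phosphorylation.

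No marker in the lists of 4 other non-epithelial cell types was past 2-fold. Many of these markers were dim or below background, and the offset leaves dim genes little room to pass it. For fibroblasts and smooth muscle the summed levels were 189.0 in Dclk1+ and 124.0 in Dclk1- cells, with 9 of 18 genes below background on both arrays, Acta2 and Pdgfra among them. For endothelium they were 220.4 and 108.0, a ratio of 2.04, and Pecam1 and Cdh5 were below background on both. The sums were 181.9 and 155.9 for enteric neurons and glia and 401.1 and 327.3 for red blood cells, where Alas2, the heme synthesis enzyme of red cells, was at 279 and 237.

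Several of the lowest and highest genes belong to none of the lists. Smarcd3, a subunit of SWI/SNF chromatin remodelling complexes, had a level of 23.2 in Dclk1+ cells and 5059.5 in Dclk1- cells (-5.91), Duoxa2, which matures an epithelial oxidase, 23.7 in Dclk1+ cells and 1966 in Dclk1- cells (-4.53) and Sprr2b, a small proline-rich protein, 1414 in Dclk1+ cells and 35588 in Dclk1- cells (-5.11). Prap1 had 465 in Dclk1+ cells and 13588 in Dclk1- cells (-5.06). In the other direction Hebp1, a heme-binding protein, had 7783 in Dclk1+ cells and 217 in Dclk1- cells (4.40), Itih5 2346 in Dclk1+ cells and 26.3 in Dclk1- cells (4.27), Snrnp25, a protein of the minor spliceosome, 4134 in Dclk1+ cells and 84.9 in Dclk1- cells (4.36), Fam221a 5599 in Dclk1+ cells and 87.1 in Dclk1- cells (4.78) and Tmem176a 7404 in Dclk1+ cells and 227 in Dclk1- cells (4.25). Of the 206 genes at least 4-fold higher 53 lie in a list, and of the 277 lower 90 do, so most of the differences lie outside the groups described.

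The genes picked in normal epithelium were then read on the tumor arrays. The ranking used the tumor arrays only through the shared quantile normalization and the choice of probe. There, 214 genes were at least 2-fold higher in Dclk1+ cells (1.75% of 12199) and 260 at least 2-fold lower (2.13%). All 25 of the highest genes were higher in Dclk1+ tumor cells by 2-fold or more, and their median was 3.17, beside 5.20 in normal, where their size had chosen them. Of the 25 lowest 22 were at least 2-fold lower in tumor, and all 25 were below 0, with a median of -1.77 beside -5.20. Lrmp had levels of 4518 in Dclk1+ and 8.09 in Dclk1- tumor cells (5.88), and Trpm5 2343 and 14.8 (4.87). Agr2 was the gene nearest to 0 among the lowest, bright in both tumor samples at 10404 and 8875 (-0.04). The remaining 2 were Nts (2.81 and 33.3, -0.58) and Smarcd3 (33.4 and 85.7, -0.68), both dim in both tumor samples.

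**Figure D4:**
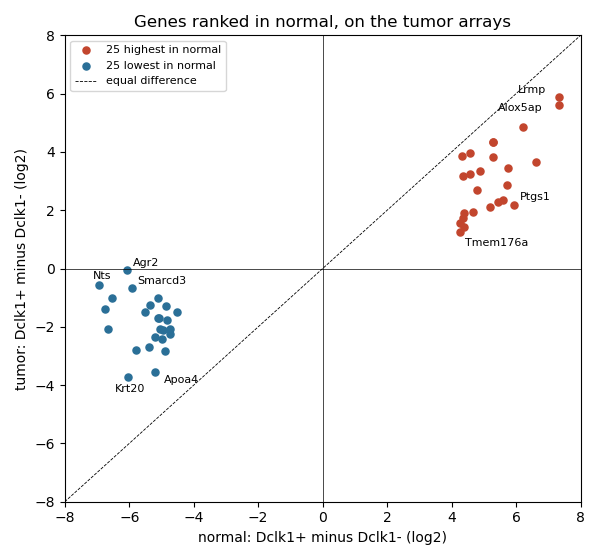
Log2 difference (Dclk1+ minus Dclk1-) in tumor (vertical axis) against the same difference in normal epithelium (horizontal axis) for the 25 highest and 25 lowest genes of normal epithelium, 1 point per gene, with a dashed line of equal difference. Every point lies nearer to 0 in tumor than in normal, and Agr2 lies at -0.04.

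Other genes of the normal comparison took other values in tumor, with 1 array a sample and no test of the change. Gnai2 was at 0.13, beside 2.85 in normal, Cdkn1c at 0.40 beside 3.90 and Nav1 at 0.10 beside 3.04. Ifitm1 was bright in both tumor samples (7719 and 8388). Sct was 908 in Dclk1+ and 80.8 in Dclk1- tumor cells (2.67), whereas in normal both samples held it at like levels. In the tuft list 23 of 41 genes were at least 2-fold higher in tumor and none lower, with a median of 1.51.

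For the 6 lists tried under 10 other settings, the direction of the median was the same in each and its size was not. The tuft median was 2.94 with the offset of 50, 5.94 on the authors' own values and 5.81 with the blank mean subtracted. In the setting on the authors' values, a probe not listed on an array was given the lowest listed value of that array. This filled the Dclk1- value of 12 of the 43 tuft genes. On the authors' values 956 genes passed 4-fold upward and 922 downward, and all 206 and 268 of the 277 described here were among them. In the plot of list medians by setting, the tuft median stays to the right of 0 and the other 5 to the left in every setting.

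**Figure D5:**
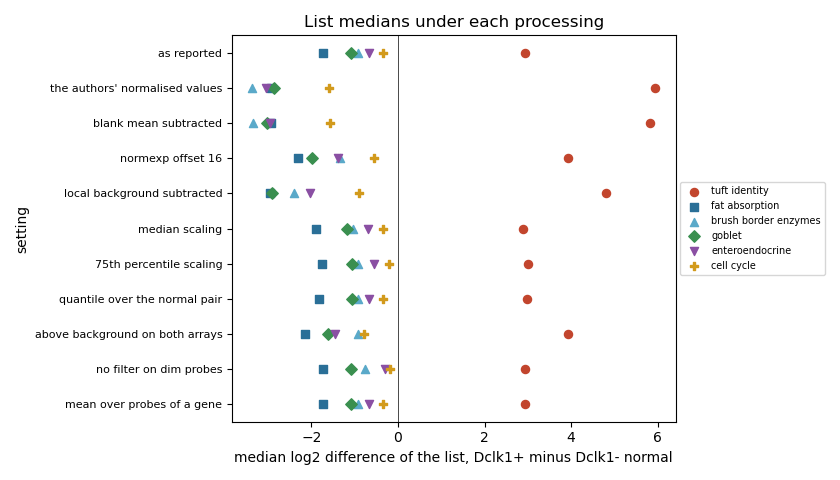
Median log2 difference of 6 gene lists (horizontal axis, Dclk1+ minus Dclk1- normal) under each processing (vertical axis), 1 symbol per list. The tuft identity median runs from 2.88 with median scaling to 5.94 on the authors' values, and the cell cycle median stays below 0 throughout.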

How the data were processed

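RNA was amplified, labelled with Cy5 and hybridised to 3D-Gene arrays, per the labels' protocols. The scanner files hold the median intensity of each spot, per the file headers, with nothing subtracted. The authors also deposited a table of normalised intensity, which leaves dim probes empty ("not listed" in the text). The labels do not state its scale. Each column proved a straight line of the spot medians, less a constant near the blank mean and multiplied so that listed probes have a median near 25.

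The spot medians were corrected with normexp (offset 50) in limma 3.58.1 (R 4.3.3) without the local background, which followed the spot (correlation of logs 0.921 in Dclk1- normal and 0.938 in Dclk1+ normal). Control spots were dropped, 1 flagged spot of Dclk1- normal and 3 of Dclk1- tumor were left out, then quantile normalization over all 4 arrays and log2 followed. The platform table names 16631 probes with 1 symbol, 0 with several, and leaves 6842 unnamed. Symbols follow RefSeq GRCm38.p6: 12622 were current and 3947 synonyms of 1 gene, while 59 synonyms of several genes and 3 unmatched symbols kept the array's name. For the 229 genes with several probes the brightest was used, and the SD between probes of a gene was 0.79 log2. The script was tested on simulated data.

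The rule for named genes takes the 25 highest and 25 lowest log2 differences above background on both arrays, the 8 largest bounds in each direction, the first 6 members of each list, its up to 6 members farthest from 0 past 2-fold in each direction, Dclk1, Actb, Gapdh, Hprt and Tbp. Not all list members it takes are printed. A few members near 0 are named beside them as contrasts, as are Sucnr1, Ffar3, Itpr3 and Sst, chosen after their values were seen. The members and lists were chosen with earlier results of these data known. Precision is limited by the number of arrays, 1 a sample, and no p-value was computed.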

Additional observations from a re-analysis of the deposited data

Results flagged for a closer look

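Ern2, an endoplasmic reticulum stress sensor of mucus-secreting cells, took opposite directions in the normal and tumor pairs. In normal epithelium its level was 81.9 in Dclk1+ cells and 700.3 in Dclk1- cells, a log2 difference of -2.41. In tumor it was 8132 in Dclk1+ and 2296 in Dclk1- cells, a log2 difference of 1.41. With 1 array a sample the difference between the pairs was not tested.

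Probes that the platform table leaves unnamed here were used in no comparison, and 52 of them were higher and 82 lower in Dclk1+ normal cells by 4-fold or more. They make up 2.82% of the 4752 unnamed probes above background on at least 1 normal array, and reach log2 differences of 6.86 and -5.11.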

How the results depend on the processing

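Under the 10 other settings, the 6 list medians tried, the Dclk1 difference and the named genes' differences past 2-fold kept their sign. Lower genes outnumbered higher ones at 4-fold except on the authors' values, where 50.9% were higher against 42.7%. A value without a test was held to have stayed where it moved by less than the SD between probes of a gene (0.79 log2), and a count where it stayed within 1.5 times. The counts of genes at least 4-fold higher and lower, 206 and 277, were 956 and 922 on the authors' values, 747 and 1000 with the blank mean subtracted, 616 and 718 with the local background subtracted and 329 and 424 with an offset of 16. On the authors' values, probes not listed on an array took the lowest listed value of that array. A smaller offset compresses dim genes less by construction, and the other 3 settings use no offset. How much of their moves comes from that was not tested. The tuft identity median was 5.94, 5.81, 4.81 and 3.92 in that order, and 3.92 among genes above background on both arrays, which leaves out the 12 genes with a bound. On the authors' values, with the blank mean and with the local background subtracted, the medians were -2.94, -2.94 and -2.94 for fat absorption, -3.37, -3.34 and -2.40 for brush border enzymes, -2.87, -3.03 and -2.91 for goblet cells and -3.06, -2.94 and -2.04 for enteroendocrine genes. The goblet median was -1.99 with an offset of 16. The cell cycle median was -1.59 on the authors' values and -1.58 with the blank mean subtracted. Median, 75th percentile and pairwise quantile scaling, no filter on dim probes and the mean over probes kept these values within the limits, with 196 to 224 genes higher and 274 to 300 lower. The median over all genes was 0.138 with 75th percentile scaling and 0.265 on the authors' values, against 0.015. The Dclk1 difference ran from 1.28 with the local background subtracted to 2.03 on the authors' values. Of 308 named genes tried, 140 moved beyond that SD on the authors' values, 141 with the blank mean and 138 with the local background subtracted, and 65 with an offset of 16. No paired analysis was possible because each group has 1 array. Dim genes limit the rest: none under a level of 100 on both arrays reached 4-fold at this offset.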

Other observations

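Some of the genes with the largest bounds, above background on 1 normal array only, fall in none of the groups described. Folr1, a folate receptor, was at 689 in Dclk1+ cells and not listed in Dclk1- cells (at least 8.85-fold higher). Rbpms, an RNA-binding protein, was at 649.8 and not listed (at least 8.50-fold), and Plekho2 was at 479 against 2.34 (at least 6.56-fold). In the other direction St3gal4, a sialyltransferase, was at 359 in Dclk1- cells and 2.87 in Dclk1+ cells (at least 6.14-fold lower), Edn1, endothelin, at 160.0 and not listed (at least 3.26-fold), Clps, colipase, at 139 against 2.95 (at least 2.94-fold), Ocm at 167 and not listed (at least 3.36-fold) and Mpp1 at 149 against 2.74 (at least 3.10-fold). Ugt2b5, a glucuronosyltransferase of the xenobiotic list, was at 227 in Dclk1- cells and not listed in Dclk1+ cells (at least 4.23-fold).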
